A study of Mus musculus with 6 samples.

Results

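The genes described here encode the brakes on mTORC1, the growth-promoting kinase complex, together with its kinase and its scaffold: Ddit4, the sestrin genes Sesn1, Sesn2 and Sesn3, Deptor, Tsc1, Tsc2, Akt1s1, Mtor and Rptor. They were picked by symbol from the table of read counts, and all 10 were found among its 52459 gene symbols. All 10 also passed the filter on low counts, which left 15380 genes for testing.

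RNA was sequenced from C57BL/6 mouse marrow cells that had been grown into macrophages with GM-CSF, a growth factor for myeloid cells. On day 7 the cultures received either vehicle (control, 3 libraries) or piceatannol (3 libraries) overnight. Piceatannol is a plant stilbene related to resveratrol and a known Syk kinase inhibitor. Neither its dose nor the vehicle is named in the labels. The labels also leave out whether replicate libraries stem from different mice or cultures, so p-values measure the spread between these libraries, which may be technical.

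mTORC1 sits on the lysosome surface when amino acids are plentiful, and is switched on there by the small GTPase Rheb. The TSC complex, built from the products of Tsc1, Tsc2 and Tbc1d7, turns Rheb off, and growth factor signalling through AKT releases that block. Ddit4 (also called REDD1) is a stress-induced protein that acts through TSC to restrain mTORC1, sestrins restrain it by binding the amino acid relay GATOR2, and Deptor and Akt1s1 (PRAS40) bind the complex itself. In macrophages the pathway links nutrient supply to growth, lipid synthesis and activation.

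The libraries held between 33276569 and 58697084 counts. Mitochondrially encoded genes took 0.777% to 0.866% of the counts in control and 1.87% to 2.65% in piceatannol libraries. All 8 macrophage markers examined were detected; 7 fell and 1, Cd68, rose with piceatannol. Genes used as markers of other cell types were also detected, and were summed in CPM (counts scaled to the library total). The 8 neutrophil markers (7 fell, 1 was below the filter) summed to 254 to 599 CPM in control and 34.0 to 41.0 CPM in piceatannol libraries. In control S100a9 (mean 231 CPM) and S100a8 (149 CPM) were the highest of them, with Mpo at 1.31 CPM and Ly6g at 0.08 CPM. The 8 dendritic cell markers (6 fell) summed to 1600 to 1730 CPM and 825 to 1027 CPM. In control Itgax (mean 892 CPM) and Ccr7 (562 CPM) were the highest of these, with Flt3 at 2.73 CPM. Whether such transcripts came from neutrophils or dendritic cells was not tested. The 8 fibroblast and endothelial markers (4 fell, 2 rose) summed to 2236 to 2480 CPM in control and 614 to 664 CPM in piceatannol libraries, while lymphocyte markers, and erythroid and mast cell markers, each summed to under 5 CPM, with the natural killer cell marker Ncr1 at 0 in every library. In such bulk samples fewer cells of a type and less RNA per cell cannot be told apart, and the part of these shifts in the results below was not tested, nor was that of the mitochondrial share.

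Piceatannol moved these genes in both directions. Ddit4 rose 10.9-fold, Akt1s1, Tsc1 and Sesn1 rose by less, and Deptor, Tsc2, Rptor and Sesn2 fell. Mtor itself and Sesn3 did not pass the test. In all, 8 of the 10 genes were called, at a Benjamini-Hochberg adjusted p under 0.05 in edgeR's quasi-likelihood test. The same test called 77% of all tested genes, so this share is near the background. Of the 10 genes 4 rose and 4 fell, where 38.8% of all tested genes rose and 38.3% fell. The values of the groups did not overlap for 8 of the 10 genes, against 79% of all tested genes, and 3 of the 10 were called with a change of at least 2-fold, against 34%. The median log2 fold change of the 10 genes was 0.04, beside 0.01 for all tested genes.

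**Figure D1:**
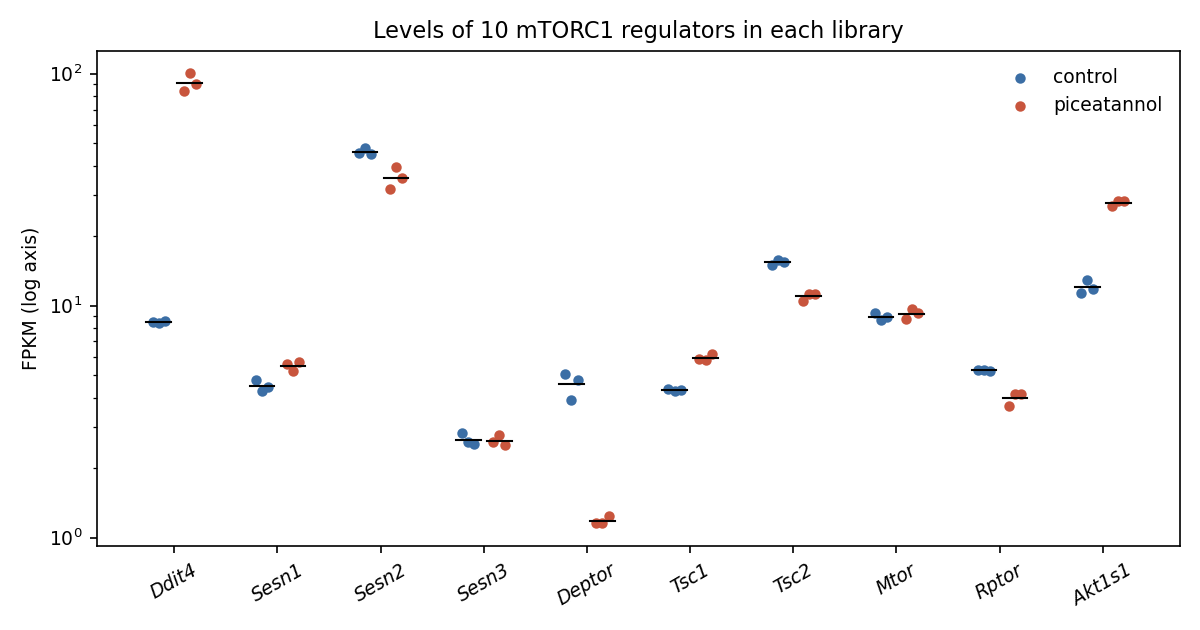
FPKM (fragments scaled by gene length and library size, log axis) of the 10 genes in each of the 3 control (blue) and 3 piceatannol (red) libraries, with black bars at the group means. Ddit4 goes from the middle of the order in control to the top in piceatannol, Deptor goes to the bottom, and the points of the groups overlap for Sesn3 and Mtor.

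Ddit4 (chromosome 10, 59949669 to 59951834, minus strand) is a short gene of 3 exon blocks. It was level across the control libraries, at 8.50, 8.39 and 8.57 FPKM, and reached 83.77, 100.33 and 90.21 FPKM in the piceatannol libraries. Every piceatannol library lay far above every control library. The log2 fold change was 3.45 ± 0.07 (SE), a 10.9-fold rise from 14.9 ± 0.198 to 163 ± 14.3 CPM (SD, n = 3 each; adjusted p = 6.97e-19, edgeR). Among the 15380 tested genes this was the 255th highest log2 fold change. By mean FPKM the gene ranked 5404 in control and 430 in piceatannol libraries.

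The start regions of Ddit4 and Sesn2 are shown because these stress-inducible brakes moved in opposite directions. Each sequence covers 250 bases before and 50 after the RefSeq start site on GRCm38.p6, read 5′ to 3′ on the strand of the gene. Ddit4 is at chr10:59951721-59952020 and Sesn2 at chr4:132510407-132510706, both on the minus strand. Capitals mark matches to the motifs searched on either strand: ACGTG, the core of hypoxia response elements; TGATGNAAN, a composite element bound by ATF4; TGACNNNGC, the core of antioxidant response elements; and GTAAACA, bound by FOXO factors.
Ddit4: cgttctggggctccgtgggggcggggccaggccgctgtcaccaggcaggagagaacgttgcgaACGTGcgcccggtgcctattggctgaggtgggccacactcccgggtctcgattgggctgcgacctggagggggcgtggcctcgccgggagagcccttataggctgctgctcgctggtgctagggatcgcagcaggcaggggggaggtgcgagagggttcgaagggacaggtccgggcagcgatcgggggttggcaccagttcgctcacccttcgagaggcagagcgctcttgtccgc
Sesn2: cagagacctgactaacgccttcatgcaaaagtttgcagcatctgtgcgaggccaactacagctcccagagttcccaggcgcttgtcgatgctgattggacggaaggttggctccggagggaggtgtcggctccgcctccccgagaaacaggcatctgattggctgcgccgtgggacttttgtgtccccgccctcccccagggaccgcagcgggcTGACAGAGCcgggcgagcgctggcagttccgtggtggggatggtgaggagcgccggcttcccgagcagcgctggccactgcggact

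The Ddit4 window holds ACGTG at -187 to -183, with the start site counted as 0. Of the 10 windows listed for 9 of the genes (Sesn1 has 2 start sites, and Deptor had no entry), only those of Ddit4 and Rptor hold ACGTG, at a share of 19.6% over all 32851 promoters, and these genes moved in opposite directions. The Sesn2 window holds TGACNNNGC at -36 to -28, as do 12.4% of all promoters. GTAAACA occurs in 1 of the Sesn1 windows (3.65% of all promoters), and TGATGNAAN in no window of these genes (3.95% of all promoters). A match is a description of the letters in this window and does not show that a factor binds.

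The genes with profiles nearest to Ddit4 were Gprc5a, Slc22a4 and Vegfa. Nearness was the root mean square difference in log2 CPM, each gene less its own control mean, over 6 libraries and 10614 genes, and it was 0.07 for Gprc5a, 0.08 for Slc22a4 and 0.12 for Vegfa. Gprc5a encodes an orphan receptor, Slc22a4 an organic cation transporter and Vegfa a vascular growth factor known as a hypoxia-inducible gene. Their log2 fold changes were 3.43 (Gprc5a, SE 0.17), 3.43 (Slc22a4, SE 0.07) and 3.30 (Vegfa, SE 0.07). On the log2(FPKM + 1) scale Gprc5a, at 0.716 CPM in control, stood at 1.80. This measure follows mainly the size of the change between the groups.

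Sestrins are stress-responsive proteins that signal amino acid shortage, in particular of leucine, to GATOR2. Sesn2 (chromosome 4, 132492032 to 132510501) was by far the most abundant of the sestrin genes, with 45.27, 47.56 and 44.81 FPKM in control and 31.77, 39.73 and 35.42 FPKM in piceatannol libraries. All piceatannol values lay below all control values, and they were spread more widely. The fall was 1.27-fold (log2 fold change -0.34 ± 0.07 SE; adjusted p = 0.000168, edgeR).

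Sesn1 (chromosome 10, 41809935 to 41908424), known as a p53 and FOXO target, had 4.78, 4.28 and 4.45 FPKM in control and 5.62, 5.20 and 5.69 FPKM in piceatannol libraries. The groups did not overlap, but the gap between the highest control and the lowest piceatannol library was small. The rise was 1.24-fold (log2 fold change 0.31 ± 0.08 SE; adjusted p = 0.00198, edgeR). Sesn3 (chromosome 9, 14275067 to 14333101), a FOXO target, had 2.82, 2.58 and 2.52 FPKM in control and 2.58, 2.76 and 2.51 FPKM in piceatannol libraries. Its groups overlapped, with a log2 fold change of 0.01 (adjusted p = 0.905, edgeR). The 95% interval of -0.14 to 0.16 leaves out a fall as large as the one fitted for Sesn2.

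The 3 sestrin genes therefore did not move as a set. Their summed level was 53.0 ± 1.33 FPKM in control and 43.8 ± 3.86 FPKM in piceatannol libraries (n = 3 each, SD). Sesn2 made up 86.5% ± 0.885 of that sum in control and 81.3% ± 1.92 in piceatannol libraries, and Sesn1 8.50% ± 0.594 and 12.7% ± 1.61. The ratio of Sesn1 to Sesn2 was 0.106, 0.0900 and 0.0993 in control and 0.177, 0.131 and 0.161 in piceatannol libraries, with no overlap. For this ratio, as for all 7 ratios between genes that were tested, the exact two-sided permutation test gave p = 0.1 (Benjamini-Hochberg adjusted 0.1), the smallest that 3 libraries against 3 allow.

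The TSC genes moved apart. Tsc1 (chromosome 2, 28641228 to 28691167), encoding hamartin, the stabilising subunit, had 4.35, 4.27 and 4.31 FPKM in control and 5.90, 5.80 and 6.20 FPKM in piceatannol libraries. Tsc2 (chromosome 17, 24595816 to 24632630), encoding tuberin, the subunit that inactivates Rheb, had 14.94, 15.70 and 15.47 FPKM in control and 10.49, 11.18 and 11.25 FPKM in piceatannol libraries. For each gene the groups were well separated and tight.

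Tsc1 rose 1.41-fold (log2 fold change 0.49 ± 0.06 SE; adjusted p = 4.02e-07, edgeR) and Tsc2 fell 1.38-fold (-0.46 ± 0.06 SE; adjusted p = 6.85e-07, edgeR). The ratio of Tsc1 to Tsc2 in FPKM was 0.281 ± 0.00975 in control and 0.544 ± 0.0227 in piceatannol libraries (n = 3 each, SD), a difference of 0.96 on the log2 scale (exact permutation test, two-sided, p = 0.1). Tbc1d7, of the third TSC subunit, fell (-0.93 ± 0.12 SE, log2).

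The level of Tsc2 depends on the gene length used. The deposited FPKM of Tsc2 implies a length of 6059 bases, while the union of its exons in GENCODE M21 is 9620 bases; for the other 9 genes the implied length was 1.007 times the union. At the GENCODE length Tsc2 would stand at 9.68 FPKM in control and 6.91 FPKM in piceatannol libraries. In GENCODE M21 its exons share 693 bases (7.2% of the union) with Pkd1 on the opposite strand. Whether those bases were among the exons counted is not known. No source used here states whether counting was by strand. The fold change of Tsc2 does not depend on length, but it carries the limit on strand.

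Akt1s1 and Deptor encode proteins that bind mTOR complexes and inhibit the kinase, and they moved in opposite directions. Akt1s1 (chromosome 7, 44848991 to 44855421) had 11.35, 12.86 and 11.84 FPKM in control and 26.75, 28.15 and 28.15 FPKM in piceatannol libraries. It rose 2.34-fold (log2 fold change 1.23 ± 0.07 SE; adjusted p = 8.09e-13, edgeR), with no overlap. Of its exon bases 2.9% are shared with Tbc1d17 on the opposite strand.

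Deptor (chromosome 15, 55112317 to 55259271), whose product binds mTOR in both of its complexes, had 5.05, 3.91 and 4.78 FPKM in control and 1.16, 1.15 and 1.24 FPKM in piceatannol libraries. Control replicate 2 was the lowest of the controls, yet every control library lay above every piceatannol library. The fall was 3.81-fold (log2 fold change -1.93 ± 0.10 SE; adjusted p = 3.71e-13, edgeR), the 1047th lowest value of all tested genes. Of its exon bases 3.41% are shared with Gm9920 on the opposite strand. The collagen genes Col1a1 and Col1a2, fibroblast markers, moved the same way. They went from 887 ± 34.1 to 216 ± 15.5 CPM and from 1060 ± 90.3 to 241 ± 22.2 CPM (SD, n = 3 each). Of the other fibroblast markers examined, Col3a1 (-2.56) and Pdgfrb (-0.81) fell, as log2 fold changes. Dcn did not pass (-0.26, adjusted p = 0.109, edgeR). Falls were not particular to fibroblast markers. Of the 8 macrophage markers 7 fell, by log2 fold changes from -0.34 (Mertk) to -3.35 (Fcgr1), with Adgre1 at -1.98 and Itgam at -2.13. Cd68 rose (1.11). The part of fibroblast transcripts, or of the shift in macrophage markers, in the fall of Deptor was not tested. The genes with profiles nearest to Deptor were Eif2ak2, the double-stranded RNA-activated kinase PKR, Parp14, an ADP-ribosyltransferase, and the centrosomal gene Cep131, with root mean square differences of 0.09, 0.10 and 0.10 on the log2 scale.

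Mtor, the gene of the kinase (chromosome 4, 148448611 to 148557683), had 9.27, 8.70 and 8.89 FPKM in control and 8.75, 9.65 and 9.27 FPKM in piceatannol libraries. The groups overlapped. Its log2 fold change was 0.06, with a 95% interval of -0.06 to 0.19 (adjusted p = 0.338, edgeR). Rptor (chromosome 11, 119602905 to 119899576), which encodes Raptor, the scaffold that brings substrates to mTORC1, had 5.27, 5.29 and 5.20 FPKM in control and 3.68, 4.17 and 4.17 FPKM in piceatannol libraries. It fell 1.29-fold (log2 fold change -0.37 ± 0.07 SE; adjusted p = 3.48e-05, edgeR), with no overlap.

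Within libraries the balance of inhibitor to kinase transcripts moved in both directions. The ratio of Akt1s1 to Mtor in FPKM was 1.34 ± 0.127 in control and 3.004 ± 0.0756 in piceatannol libraries, and that of Deptor to Mtor 0.511 ± 0.0531 and 0.129 ± 0.0081 (n = 3 each, SD; exact permutation test, two-sided, p = 0.1 for each). The ratio of Mtor to Rptor was 1.70 ± 0.0574 in control and 2.30 ± 0.0778 in piceatannol libraries.

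**Figure D2:**
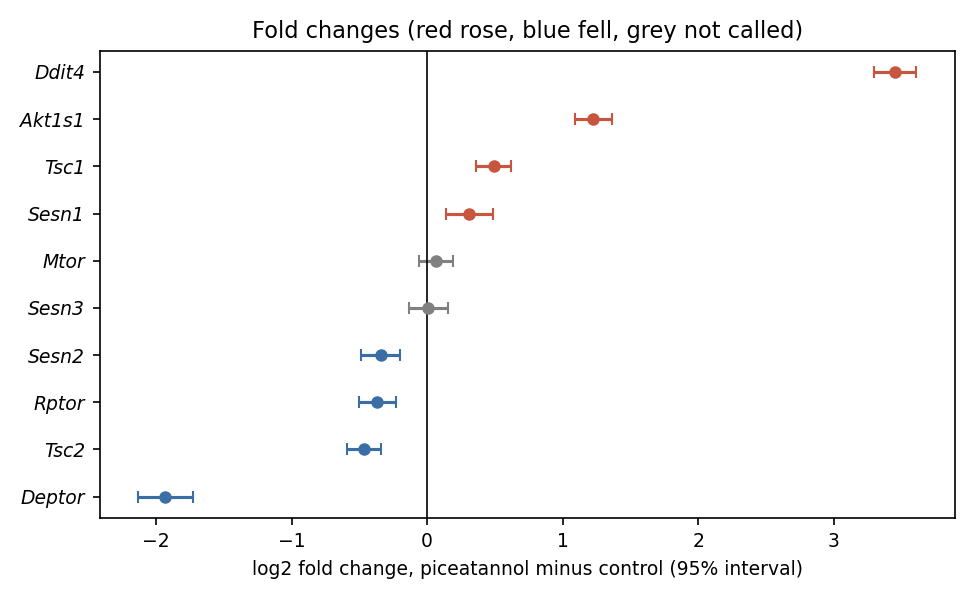
Log2 fold change (piceatannol minus control) of each of the 10 genes with its 95% interval from edgeR's fit; red genes rose, blue genes fell and grey genes did not pass the threshold. The values run from -1.93 for Deptor to 3.45 for Ddit4, and only the intervals of Sesn3 and Mtor cross 0.

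The order of levels per gene length changed with treatment. In control libraries the order by mean FPKM was Sesn2 (45.9), Tsc2 (15.4), Akt1s1 (12.02), Mtor (8.95), Ddit4 (8.49), Rptor (5.25), Deptor (4.58), Sesn1 (4.50), Tsc1 (4.31) and Sesn3 (2.64). The ranges of Deptor and Sesn1 overlapped, as did those of Sesn1 and Tsc1, so their order is not settled. In piceatannol libraries the order was Ddit4 (91.4), Sesn2 (35.6), Akt1s1 (27.7), Tsc2 (10.97), Mtor (9.22), Tsc1 (5.97), Sesn1 (5.50), Rptor (4.01), Sesn3 (2.62) and Deptor (1.18), and no neighbours overlapped. The place of Tsc2 rests on the length discussed above.

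The 8 genes whose products inhibit the pathway (all but Mtor and Rptor) summed to 97.8 ± 1.53 FPKM in control and 181 ± 13.1 FPKM in piceatannol libraries (n = 3 each, SD). Ddit4 made up 8.68% ± 0.225 of that sum in control and 50.5% ± 1.01 in piceatannol libraries. Its mean went from 8.49 to 91.4 FPKM, which is close to the whole rise of the sum. Sesn2 went from 46.9% ± 0.766 to 19.7% ± 0.772 and Akt1s1 from 12.3% ± 0.613 to 15.3% ± 0.748 of the sum. Tsc2 enters the sum at the length implied by the deposited FPKM. The sum is one of transcripts and does not weigh the strength of each protein.

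**Figure D3:**
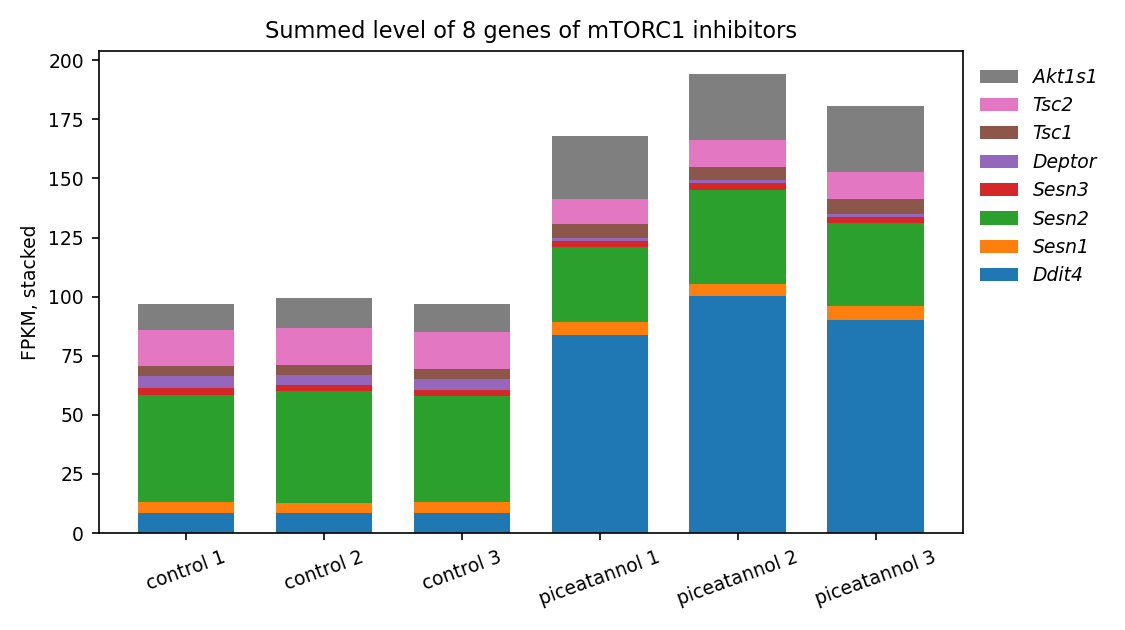
FPKM of the 8 genes of mTORC1 inhibitors stacked for each library, starting at 0. The control bars reach 96.75 to 99.55 FPKM with Sesn2 as the widest band, and the piceatannol bars reach 168.04 to 194.3 FPKM with Ddit4 as the widest band.

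Of all tested genes 77% were called, 38.8% upward and 38.3% downward, and the list counts that follow are to be read against these shares. In a list of factors known to induce Ddit4 or sestrins, which also holds the Ddit4 paralog Ddit4l, 9 of 12 genes were higher at the threshold and 2 lower, the median log2 fold change being 0.74. Ddit3, of the stress factor CHOP, rose by 4.12 on the log2 scale, Cebpb by 2.15, Foxo1 by 1.78, Arnt, the partner of the hypoxia-inducible factors, by 1.38, and Atf4, of the amino acid stress factor, by 1.09. Hif1a stood at 0.04 (adjusted p = 0.647, edgeR), Epas1, of the related factor HIF-2α, fell by 0.96 (by 0.52 on the log2(FPKM + 1) scale), and Trp53, of p53, fell by 0.22. Sesn2, known as a target of ATF4 and CHOP, had lower values in the libraries in which Atf4 and Ddit3 were higher. Nfe2l2, also in this list, rose by 0.45 on the log2 scale. These are transcript levels, and the part of any factor in the level of Sesn2 was not tested. Ddit4l rose from 1.55 to 2.92 CPM, or by 0.92 on the log2 scale (0.38 on the log2(FPKM + 1) scale).

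The other subunits and assembly factors of the mTOR complexes went 3 up and 3 down of 8 (75% called, against 77% of all tested genes), with a median of 0.04. Mlst8, shared by both complexes, was at 0.03 (log2 fold change, adjusted p = 0.69, edgeR). Rictor, the scaffold of mTORC2, rose by 0.67 on the log2 scale, while Prr5, a subunit of mTORC2, fell from 8.56 to 1.63 CPM and Telo2, of mTOR assembly, fell by 0.88 on that scale. On the log2(FPKM + 1) scale Prr5 fell by 1.56 and Telo2 by 0.55.

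All 13 genes of the lysosomal docking machinery were called, 7 up and 6 down, against 77% of all tested genes, with a median of 0.34. The genes of the folliculin complex, which acts on RagC and RagD, rose together: Fnip2 by 2.51, Fnip1 by 1.56 and Flcn by 1.06 on the log2 scale. Rragd rose by 1.79 (1.19 on the log2(FPKM + 1) scale) and Rragc by 0.47, while Rraga fell by 0.60. Rragb, which was low, fell by 1.61, from 1.54 CPM in control to 0.483 CPM in piceatannol libraries. Of the Ragulator genes, which anchor the Rag GTPases to the lysosome, Lamtor1 (-0.25), Lamtor2 (-0.67), Lamtor4 (-0.92) and Lamtor5 (-0.73) fell and Lamtor3 (0.34) rose, as log2 fold changes.

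The list of the GATOR and KICSTOR relay, which passes on the sestrin signal, also holds genes of sensors of arginine and S-adenosylmethionine. Of its 14 genes 8 rose, 3 fell (78.6% called, against 77% of all tested genes) and the median was 0.38. The arginine sensor gene Gatsl3 (Castor1) rose by 1.49 and Bmt2, of the S-adenosylmethionine sensor SAMTOR, by 1.27, while Gatsl2 (Castor2) fell by 0.82 on the log2 scale.

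In a list of inputs to TSC, which also holds the TSC subunit gene Tbc1d7 and the genes of its target Rheb and of Rhebl1, all 15 genes were called, 8 up and 7 down, against 77% of all tested genes, with a median of 0.22. Between 12 (CPM of at least 5 in 3 libraries) and 15 were called over the other settings. Akt1 and Akt2, whose products lift the TSC block, fell, Akt1 from 448 to 225 CPM (log2 fold change -0.99) and Akt2 by 0.36 on the log2 scale. Among genes of AMPK, the energy sensor that activates TSC2, the catalytic subunit genes Prkaa1 (0.34) and Prkaa2 (1.72) and the beta subunit genes Prkab1 (0.22) and Prkab2 (2.04) rose, and the gamma subunit genes Prkag1 (-0.48) and Prkag2 (-0.70) fell, as log2 fold changes. Prkaa2 was low, with a mean of 0.603 CPM in control and 2.05 CPM with piceatannol, and stood at 1.00 on the log2(FPKM + 0.1) scale and 0.22 on the log2(FPKM + 1) scale. Rheb fell by 0.16 and its relative Rhebl1 rose by 1.17. The call of Rheb was lost under 6 of 17 other settings, with adjusted p up to 0.201 (edgeR). These include leaving out control replicate 1 (-0.15) or 2 (-0.15), or piceatannol replicate 3 (-0.09), as log2 fold changes.

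Of 15 genes of mTORC1 substrates and effectors, 5 rose, 3 fell and 7 did not pass. The share called was 53.3%, against 77% of all tested genes, and the median was 0.09. Between 8 and 11 were called over the other settings, with 11 for upper-quartile scaling and for CPM of at least 5 in 3 libraries. The autophagy genes Ulk1 and Atg13 rose by 1.36 and 1.27 on the log2 scale. The genes of the translation repressors 4E-BP moved apart: Eif4ebp1 rose from 83.5 to 202 CPM and Eif4ebp2 fell from 253 to 118 CPM. Maf1, a repressor of RNA polymerase III, rose by 0.53.

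Of 15 metabolic genes whose transcription mTORC1 is known to favour, 10 fell and 3 rose, where 38.3% and 38.8% of all tested genes did, and the median was -0.59, beside 0.01 for all tested genes. The fatty acid synthase gene Fasn fell from 347 to 69.4 CPM, Slc7a5, of leucine import, by 2.06, the serine synthesis gene Phgdh by 2.10 (1.37 on the log2(FPKM + 1) scale) and Srebf2, of a sterol regulator, by 1.49 on the log2 scale. Against these, Slc3a2, which encodes the partner chain of Slc7a5, rose from 441 to 2119 CPM and Insig1 by 1.38 on the log2 scale. Over the 7 lists, 77 of 92 genes (83.7%) were called, 43 up and 34 down, beside 77% of all tested genes.

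**Figure D4:**
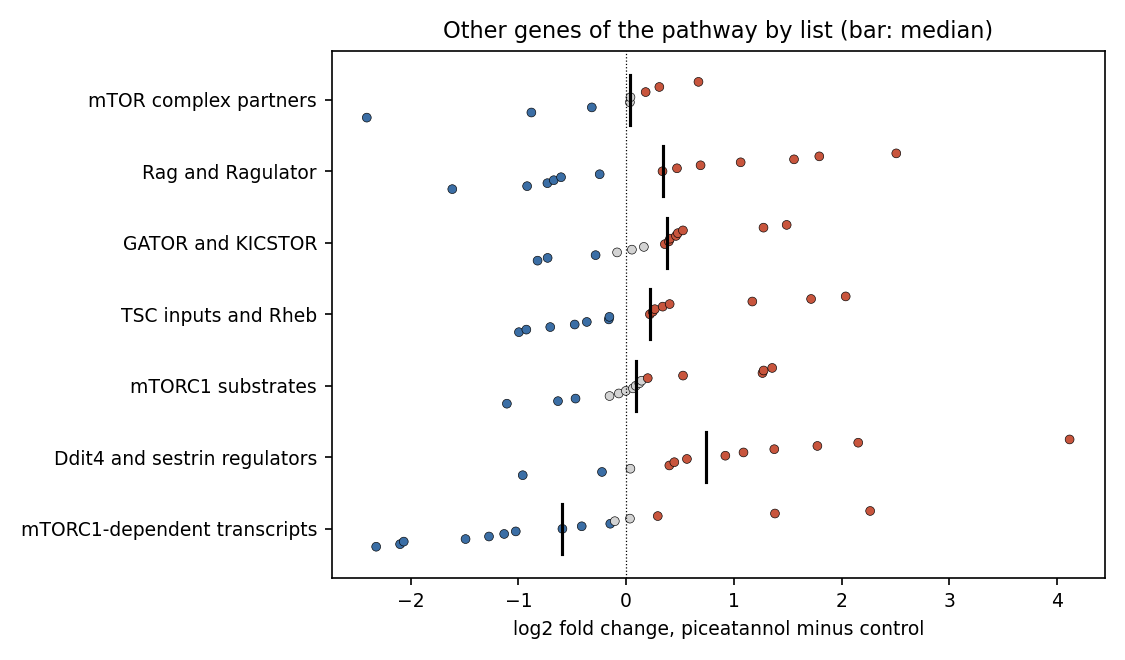
Log2 fold change (piceatannol minus control) of each tested gene of the 7 pathway lists, 1 point per gene, red where it rose, blue where it fell and grey where it did not pass, with a black bar at the median of each list. Medians run from -0.59 for the mTORC1-dependent transcripts to 0.74 for the list of regulators of Ddit4 and sestrins, which includes Ddit4l, and every list holds genes on both sides of 0.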

How the data were processed

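The members and gene lists were chosen with earlier results of these data known. For 6 libraries the authors deposited read counts by gene symbol, not normalized, and FPKM values. Per the submitters' processing notes, the tools were bcl2fastq, STAR, featureCounts and DESeq2 and the builds mm10 and GRCm38. Which annotation was used, and whether counting was by strand, is not stated there. The scaling between libraries in the deposited FPKM followed size factors of the counts (for control replicate 1, 1.144 against 1.144).

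Counts were filtered (filterByExpr, minimum count 10), scaled with TMM and tested with edgeR 4.0.16 (quasi-likelihood, robust, two-sided, no covariate, Benjamini-Hochberg over all tested genes). The test was also run on simulated counts, in which few genes changed and all genes shared a common dispersion. That setting is unlike these data, so it does not check the scaling or the error rate here. The SE is the size of the log2 fold change over the square root of F, and the 95% interval uses the fit's degrees of freedom. CPM use TMM-scaled totals, and depth was 33276569 to 58697084 counts. Replicate libraries differed beyond sampling noise (chi-square per degree of freedom 9.88 to 18.1), so none was merged. Ratios were computed from FPKM. Positions are GENCODE M21 on GRCm38, and promoters are RefSeq's on GRCm38.p6, matched by symbol for 9 of 10 genes. Named by rule were the 10 genes, up to 3 genes with the largest called change per list at a mean log2 CPM of at least 2, Hif1a, Atf4, Ddit3 and Trp53, and the 3 nearest profiles of Ddit4 and Deptor; other genes were named after their values were seen. The GATOR list holds 16 symbols for 14 genes, since 2 genes were also listed by a newer symbol. Some genes of the lists are counted but not reported here by name.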

Additional observations from a re-analysis of the deposited data

How the results depend on the processing

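Settings varied were the scaling (RLE, upper-quartile, library totals), the filter (none, or CPM of at least 5 in 3 libraries), the tool (limma-voom, DESeq2, or limma on log2 of FPKM with 1 or 0.1 added), a replicate block, the threshold (0.01) and each library left out in turn. Under all 17 of them 8 of the 10 genes were called, and no called gene among the 10 lost its call or changed direction. The log2 fold change of Deptor, -1.93 in the main fit, ranged from -2.04 to -1.35 over these settings. Sesn3, which was not called, changed sign in 8: its log2 fold change was -0.0200 with library totals, -0.019 with no filter, -0.0129 with DESeq2, -0.00898 and -0.0118 on FPKM with 1 and 0.1 added, and -0.0273 (without piceatannol replicate 2) to 0.0554 with 1 library left out. Also uncalled, Hif1a ranged from -0.0537 (without control replicate 2) to 0.108 and Mlst8 from -0.0364 (without piceatannol replicate 3) to 0.0728 with 1 library left out. The cause was not tested. The added 1 in log2(FPKM + 1) lowered the change of weakly expressed genes by over 1.5 times: Gprc5a to 1.80, Prr5 to -1.56, Phgdh to -1.37, Epas1 to -0.52, Telo2 to -0.55, Ddit4l to 0.38, Rragd to 1.19 and Prkaa2 to 0.22. The number of all genes called was 8802 with the stricter filter, which tests fewer genes, 12744 with no filter, and 11487 to 11880 with 1 library left out. For the pathway lists it was 73 to 79. The replicate block gave 12012 called genes, 8 of the 10 genes and 79 of the list genes. Deviations of libraries with the same number correlated at 0.0369, 0.0696 and 0.0654, each higher than with the other numbers. Deviations from a group mean depend on each other, and so do these small correlations. They cannot decide whether libraries were paired, and the design names no pairing. The differences in log2 ratio kept their direction with counts in place of FPKM and with 1 library left out, where Tsc1 to Tsc2 ranged from 0.93 to 0.99.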
